A study of Mus musculus with 9 samples.

Results

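The sialyltransferase genes described here are St3gal1, St3gal2, St3gal3, St3gal4, St3gal5, St3gal6, St6gal1, St6galnac4, St6galnac6 and St8sia4, 10 of the 46095 genes listed in the count table. They were selected by symbol from the mouse sialyltransferase family, which has 20 genes, with their measured levels in these libraries known, so their values and calls are a description and not independent evidence about the family. Of the 10, 9 passed the filter on low counts and were tested with the other genes, and St3gal6 did not pass. RNA was sequenced from cultured macrophages derived from the bone marrow of wild-type Balb/c mice at 6 weeks of age. The 3 groups were LPS plus BHB, LPS alone and control, with 3 libraries each, and no group received BHB without LPS. The labels give no dose or time. They also leave the origin of the replicates unstated, whether from different animals, different cultures or one preparation, so the tests measure only the spread between these libraries.

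Sialyltransferases are Golgi enzymes that transfer sialic acid from its activated nucleotide form to the ends of glycans on glycoproteins and glycolipids. They are named for the bond they make and the sugar they make it to: ST3GAL and ST6GAL enzymes act on galactose, ST6GALNAC enzymes on N-acetylgalactosamine, and ST8SIA enzymes on another sialic acid. On macrophages and other leukocytes the resulting caps hide galactose from galectins, serve as ligands for Siglec receptors and selectins, and can be removed again by sialidases.

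Total counts were between 29633411 and 32798920 per library, of which the 10 sialyltransferase genes took 1068 to 1115 CPM (counts relative to library totals scaled by TMM factors) in LPS plus BHB libraries, 1258 to 1288 in LPS libraries and 768.8 to 776.8 in control libraries. All 7 macrophage markers were detected in every library, with summed levels of 9221 to 9634 CPM in LPS plus BHB libraries, 7610 to 8770 in LPS libraries and 18220 to 21540 in control libraries. Most of each sum was Lyz2, which averaged 5883, 5061.5 and 14575 CPM in LPS plus BHB, LPS and control libraries. In LPS against control 6 of the 7 markers were lower, beside 41.4% of all tested genes, and 1 was higher. The higher 1 was Adgre1, at 1365, 1315 and 862 CPM in the same order of groups. The 7 B cell and plasma cell markers summed to 0.339 to 0.600, 0.495 to 0.805 and 2.12 to 3.32 CPM in LPS plus BHB, LPS and control libraries. The sums of 7 neutrophil and precursor markers were 4.27 to 5.05, 1.85 to 2.90 and 3.78 to 3.89 CPM, and those of 5 stromal markers were 3.60 to 9.52, 3.36 to 8.12 and 3.03 to 10.1 CPM in the same order of groups. Whether these marker levels had a part in the members' differences was not tested. In these bulk samples fewer cells of a type and less RNA per cell cannot be told apart.

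In LPS against control, 4 of the 9 tested members were higher and 5 were lower, which is 44.4% and 55.6% of them. Over all 14026 tested genes 38.4% were higher and 41.4% lower at an adjusted p under 0.05 (quasi-likelihood test of edgeR, Benjamini-Hochberg adjustment over all tested genes), so calls in both directions were common. The members' median log2 fold change was -0.34, against -0.06 over all tested genes. Between LPS plus BHB and LPS, 5 members were higher and 3 lower, beside backgrounds of 26.4% higher and 24.4% lower, and the median was 0.26 against 0.01 over all tested genes. Between LPS plus BHB and control, 4 members were higher and 3 lower, beside 38.0% higher and 40.4% lower over all genes, and the median was 0.02 against -0.06. These 3 comparisons share libraries pairwise, so they are not independent of each other. Scaling by library totals alone shifted the median log2 fold change of all genes by -0.274 in LPS against control, and changed the counts over all genes there to 4283 higher and 7084 lower, against 5390 and 5801 with TMM. For LPS plus BHB against control the shift was -0.326 and the counts were 3922 higher and 7366 lower, against 5328 and 5662 with TMM.

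**Figure D1:**
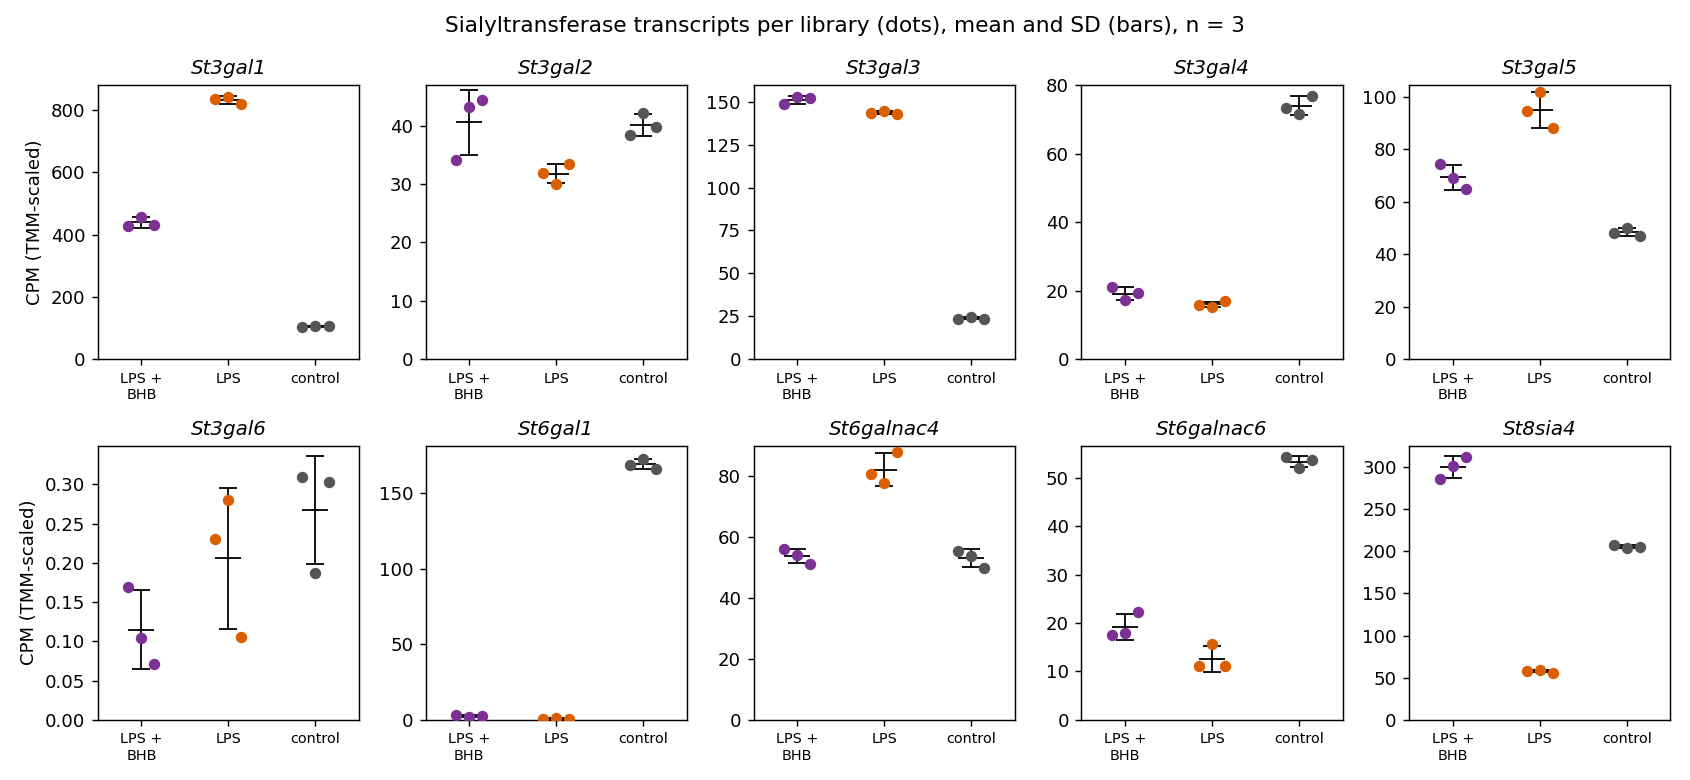
Level of each sialyltransferase gene in each of the 9 libraries, in CPM on a linear axis of its own for each gene, with LPS plus BHB, LPS and control libraries from left to right, a dot per library and bars for the mean and SD of 3 libraries. St6gal1 lay between 166 and 173 CPM in the control libraries and below 3 CPM in all 6 libraries that received LPS, and St8sia4 was lowest in the LPS libraries.

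St6gal1 makes the bond between sialic acid and the terminal galactose of N-glycans in which sialic acid is joined at the galactose's sixth carbon, the structure that the Siglec CD22 recognises. It lies on mouse chromosome 16, plus strand, from base 23224740 to 23360350 (GRCm38), as a protein-coding gene. Its level was 2.92, 1.60 and 2.72 CPM in the LPS plus BHB libraries, 0.725, 0.874 and 0.743 CPM in the LPS libraries, and 169, 173 and 166 CPM in the control libraries. No group overlapped another: LPS libraries were lowest, LPS plus BHB libraries were slightly above them, and control libraries were far above both. The deposited counts behind these levels were 86, 46 and 77 with LPS plus BHB, 22, 25 and 21 with LPS, and 5991, 6458 and 6030 in control. In LPS against control the log2 fold change was -7.75 (SE 0.12), a level 216-fold lower and the 21st lowest log2 fold change of 14026 genes. Compared with LPS libraries, LPS plus BHB libraries were higher for St6gal1 by 1.62 on the log2 scale (SE 0.21), or 3.08-fold with a 95% interval of 2.26 to 4.21. Compared with control it was still 70.1-fold lower with LPS plus BHB (log2 fold change -6.13, SE 0.10).

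Several measurements bear on how these counts can be read. The antisense gene BC106179 shares 200 exon bases with St6gal1, which is 4.07% of St6gal1's exon bases, and the strand setting of the counting is not given, so reads there cannot be told apart. BC106179 had 1, 0 and 4 counts with LPS plus BHB, 0, 1 and 6 with LPS, and 147, 154 and 81 in control, fewer than St6gal1 in every library. Of the B cell genes, Cd79b, a B cell receptor subunit and the one marker of that list with enough counts to be tested, was lower where St6gal1 was lower than in control. It averaged 0.127 CPM with LPS plus BHB, 0.495 CPM with LPS and 2.48 CPM in control, and fell by 2.32 on the log2 scale in LPS against control (SE 0.37). In LPS plus BHB against LPS, where St6gal1 rose, Cd79b fell by 1.93 (SE 0.54). Ms4a1 and Pax5 totalled 4 and 3 counts over the control libraries. LPS-induced genes in the 3 control libraries summed to 19.2, 96.3 and 94.7 CPM, beside 9679, 9785 and 9401 CPM in the LPS libraries. St6gal1 was alike in all 3 control libraries. Why the control sums differed, and whether the same bears on the low St6gal1 levels with LPS, was not tested.

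RefSeq lists 3 St6gal1 promoter windows, each 250 bases before to 50 after a transcript start (GRCm38.p6, plus strand), at chr16:23224490-23224789, chr16:23225771-23226070 and chr16:23290220-23290519. They are shown because St6gal1 had the widest range of levels of all members and starts its transcripts at several places. Capitals mark the hypoxia response core ACGTG, read here on the opposite strand, in the second window and the AP-1 letters TGANTCA in the third.
St6gal1 window at 23224490: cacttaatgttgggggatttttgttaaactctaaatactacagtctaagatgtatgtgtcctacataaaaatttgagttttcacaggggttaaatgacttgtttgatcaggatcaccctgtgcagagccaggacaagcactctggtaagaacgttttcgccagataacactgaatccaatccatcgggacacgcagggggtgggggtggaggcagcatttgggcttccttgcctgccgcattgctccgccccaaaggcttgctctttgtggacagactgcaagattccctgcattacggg
St6gal1 window at 23225771: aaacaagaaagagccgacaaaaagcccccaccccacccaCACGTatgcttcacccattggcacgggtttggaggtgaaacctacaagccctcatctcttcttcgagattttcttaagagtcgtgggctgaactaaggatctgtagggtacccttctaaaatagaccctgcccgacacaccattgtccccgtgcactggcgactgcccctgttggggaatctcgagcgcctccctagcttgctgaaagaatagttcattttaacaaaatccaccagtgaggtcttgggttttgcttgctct
St6gal1 window at 23290220: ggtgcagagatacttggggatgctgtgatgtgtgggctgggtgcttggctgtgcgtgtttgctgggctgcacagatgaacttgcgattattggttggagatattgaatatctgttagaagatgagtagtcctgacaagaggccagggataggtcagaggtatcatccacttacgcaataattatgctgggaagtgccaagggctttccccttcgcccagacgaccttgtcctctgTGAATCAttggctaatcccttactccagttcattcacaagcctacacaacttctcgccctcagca
Across all 32851 RefSeq promoter windows of the same length, searched on both strands, 19.6% held ACGTG, 7.81% held TGANTCA and 8.46% held the NF-kB consensus. The 3 St6gal1 windows held 48.0%, 50.7% and 49.7% G or C and 7, 10 and 6 CpG pairs, beside medians of 52.7% and 7 over all windows. No NF-kB consensus letters were in these 3 windows. Among the 11 windows of the 8 members matched in RefSeq, each of the 3 motifs was found in 1 window, and the NF-kB match was in a window of St3gal6. The counts are per gene, so they do not show from which start the transcripts came.

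St3gal1 caps the core O-glycan of galactose on N-acetylgalactosamine. It had 427, 458 and 432 CPM in the LPS plus BHB libraries, 835.5, 843 and 820.2 CPM in the LPS libraries, and 103, 105 and 106 CPM in the control libraries. The groups did not overlap, with LPS highest, LPS plus BHB between and control lowest. It rose 7.95-fold in LPS against control (log2 fold change 2.99, SE 0.04), and fell by 0.92 on the log2 scale in LPS plus BHB against LPS (SE 0.04). Against control, LPS plus BHB libraries were 4.19-fold higher (log2 fold change 2.07, SE 0.04).

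St3gal2 acts on the same O-glycan core and on gangliosides. Its levels were 34.2, 43.3 and 44.4 CPM with LPS plus BHB, 31.99, 30.08 and 33.41 CPM with LPS, and 38.4, 42.2 and 39.8 CPM in control. The LPS libraries lay lowest, and the LPS plus BHB libraries surrounded the control libraries. The log2 fold change was -0.34 in LPS against control (SE 0.08), and 0.35 in LPS plus BHB against LPS (SE 0.08). With control replicate 1 as the only control library, assumed to vary like the libraries of the other groups, LPS against control gave -0.27 and was not called (adjusted p = 0.0570, edgeR). For LPS plus BHB against control it was 0.02 with a 95% interval of -0.16 to 0.19 and was not called (adjusted p = 0.866, edgeR), although library totals alone gave -0.31 (adjusted p = 0.00220). Its log2 group means spanned 0.34, the narrowest range of the 9 tested members.

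St3gal3 adds sialic acid to galactose at the ends of N-glycan and lactosamine chains. It had 148.5, 153 and 152.0 CPM in the LPS plus BHB libraries, 143, 145 and 143 CPM in the LPS libraries, and 23.3, 24.8 and 23.5 CPM in the control libraries. Both treated groups lay far above control and close to each other, with no overlap between any groups. St3gal3 rose 6.02-fold in LPS against control (log2 fold change 2.59, SE 0.05) and 6.33-fold in LPS plus BHB against control (2.66, SE 0.05). For LPS plus BHB against LPS its log2 fold change was 0.07, with a 95% interval of -0.02 to 0.16, and it was not called (adjusted p = 0.177, edgeR). Of the 9 tested members it was the one with no call in that comparison.

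The promoter windows of St3gal3 at chr4:118134897-118135196 and of St8sia4 at chr1:95667545-95667844 (both GRCm38.p6, minus strand, printed along the gene) are shown beside those of St6gal1 as a member that rose with LPS and one that fell with it. Neither held any of the 3 motifs on either strand, so no letters are in capitals.
St3gal3 window: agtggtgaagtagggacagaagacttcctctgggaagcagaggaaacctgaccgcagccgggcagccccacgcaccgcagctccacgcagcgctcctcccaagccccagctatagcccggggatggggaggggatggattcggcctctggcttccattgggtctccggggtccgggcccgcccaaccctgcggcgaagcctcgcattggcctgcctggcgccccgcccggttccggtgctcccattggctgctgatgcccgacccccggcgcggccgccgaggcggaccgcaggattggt
St8sia4 window: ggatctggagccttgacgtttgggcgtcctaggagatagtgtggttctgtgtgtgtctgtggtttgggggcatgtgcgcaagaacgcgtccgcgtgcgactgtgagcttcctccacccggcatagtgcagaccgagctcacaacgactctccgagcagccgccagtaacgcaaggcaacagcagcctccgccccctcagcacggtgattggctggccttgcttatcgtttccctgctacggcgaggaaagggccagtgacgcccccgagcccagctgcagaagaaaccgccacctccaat
St3gal3's window held 70.0% G or C and 26 CpG pairs, and St8sia4's held 61.3% and 22, both above the medians over all windows. That no motif was found says only that these letters are not in these 300 bases.

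St3gal4 contributes to N-glycan capping and to the sialylated ligands of selectins. Its levels were 21.0, 17.1 and 19.4 CPM with LPS plus BHB, 15.8, 15.3 and 16.9 CPM with LPS, and 73.5, 71.7 and 77.1 CPM in control. Control libraries were highest, and each LPS plus BHB library lay above every LPS library. It fell by 2.21 on the log2 scale in LPS against control (SE 0.07) and by 1.95 in LPS plus BHB against control (SE 0.07). The addition of BHB to LPS came with a rise of 0.26 (SE 0.08), a call lost without LPS plus BHB replicate 1, where the log2 fold change was 0.19 (adjusted p = 0.0634, edgeR). The antisense gene 4930581F22Rik covers 14.1% of St3gal4's exon bases, with 22 to 31 counts with LPS plus BHB, 6 to 12 with LPS and 23 to 28 in control.

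St3gal5 is the synthase of GM3, the first ganglioside of the pathway. It had 74.4, 69.1 and 64.8 CPM in the LPS plus BHB libraries, 94.8, 102 and 88.4 CPM in the LPS libraries, and 48.1, 50.1 and 47.0 CPM in the control libraries. The groups stood apart, with LPS highest and control lowest. It rose by 0.97 on the log2 scale in LPS against control (SE 0.06), fell by 0.45 in LPS plus BHB against LPS (SE 0.06) and was higher by 0.52 in LPS plus BHB against control (SE 0.06).

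St3gal6, a further enzyme of selectin ligand synthesis, was close to undetected. Its counts were 5, 3 and 2 with LPS plus BHB, 7, 8 and 3 with LPS, and 11, 7 and 11 in control. The ratio of its normalised counts was 0.777 in LPS against control (95% counting interval 0.406 to 1.45), 0.559 in LPS plus BHB against LPS (0.231 to 1.28) and 0.434 in LPS plus BHB against control (0.189 to 0.917). These intervals cover counting error only, and 26.0% of its exon bases lie under exons of Dcbld2 on the other strand. Dcbld2 had 10217, 10385 and 9531 counts with LPS plus BHB, 15287, 13749 and 14433 with LPS, and 901, 938 and 1216 in control. Of St3gal6's 31-base words, matched on both strands, 24.8% also occur in transcripts of other genes, beside 12.1% for St3gal4. These shares can include antisense overlaps, and they set no bound on the error of either gene's counts.

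**Figure D2:**
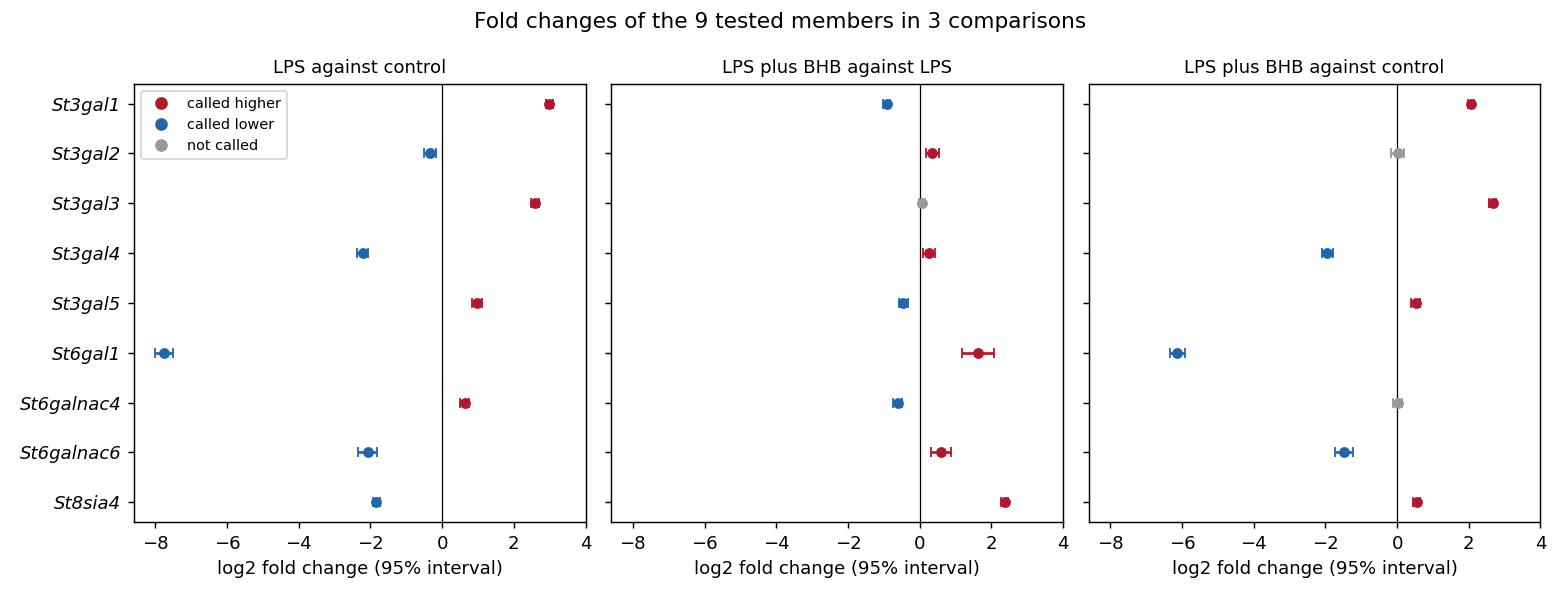
Log2 fold change of each tested sialyltransferase gene in the 3 comparisons, with bars for the 95% interval of the fit over all 9 libraries and colours for genes called higher, called lower or not called. St6gal1 lay at -7.75 in LPS against control and at 1.62 in LPS plus BHB against LPS, and the intervals of St3gal3 for LPS plus BHB against LPS, and those of St3gal2 and St6galnac4 in LPS plus BHB against control include 0.

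St6galnac4 and St6galnac6 lie next to each other on chromosome 2 with 10 bases between them, and add sialic acid to an N-acetylgalactosamine, in O-glycans for St6galnac4 and mainly in gangliosides for St6galnac6. St6galnac4 had 56.0, 54.2 and 51.1 CPM in the LPS plus BHB libraries, 80.8, 77.6 and 88.1 CPM in the LPS libraries, and 55.5, 53.8 and 49.9 CPM in the control libraries. LPS libraries stood above the other 6, which overlapped. It rose by 0.63 on the log2 scale in LPS against control (SE 0.06) and fell by 0.61 in LPS plus BHB against LPS (SE 0.06). Set against control, LPS plus BHB gave a log2 fold change of 0.02, with a 95% interval of -0.11 to 0.15 (adjusted p = 0.788, edgeR), although library totals alone gave -0.31 (adjusted p = 0.000117).

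Its neighbour St6galnac6 had 17.5, 17.8 and 22.3 CPM with LPS plus BHB, 11.05, 15.74 and 11.03 CPM with LPS, and 54.2, 52.0 and 53.5 CPM in control. Control libraries were highest and LPS libraries lowest, and LPS replicate 2 lay just under the lowest LPS plus BHB library. St6galnac6 fell by 2.08 on the log2 scale in LPS against control (SE 0.12), rose by 0.61 in LPS plus BHB against LPS (SE 0.13) and fell by 1.47 in LPS plus BHB against control (SE 0.12). In each of the comparisons with LPS alone, these neighbouring genes were called in opposite directions.

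St8sia4 is a polysialyltransferase, which builds chains of sialic acid on carriers such as NCAM and neuropilin. It had 286, 301 and 312 CPM in the LPS plus BHB libraries, 58.0, 59.2 and 56.0 CPM in the LPS libraries, and 207.5, 204 and 205 CPM in the control libraries. LPS libraries were lowest, control libraries lay between and LPS plus BHB libraries were highest, with no overlap. It fell by 1.83 on the log2 scale in LPS against control (SE 0.05). Compared with LPS it rose 5.19-fold in LPS plus BHB libraries (95% interval 4.85 to 5.55), the 226th highest log2 fold change of 14026 genes. Against control, LPS plus BHB libraries were 1.46-fold higher (log2 fold change 0.54, SE 0.04).

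Levels can be compared between genes only per length, so CPM were divided by the kilobases of exon sequence of each gene in the GENCODE M21 annotation. In control libraries St6gal1 was first, at 34.4 ± 0.672 CPM per kilobase (SD, n = 3), followed by St3gal4 at 25.3 ± 0.938 and St3gal5 at 18.5 ± 0.590. St3gal3, St6galnac4 and St3gal2 were neighbours there whose libraries overlapped, at 8.43 to 8.95, 7.70 to 8.57 and 7.63 to 8.38 CPM per kilobase. In LPS libraries the order was St3gal1 at 122 CPM per kilobase, St3gal3 at 51.9 and St3gal5 at 36.3, and St6gal1 came ninth of 10 at 0.159. St8sia4 and St6galnac6 overlapped in those libraries, at 2.79 to 2.95 and 2.29 to 3.27 CPM per kilobase. With LPS plus BHB, St3gal1 was first at 64.1 CPM per kilobase, then St3gal3 at 54.6, St3gal5 at 26.5 and St8sia4 at 14.9. St6galnac4, St3gal2 and St3gal4 followed, and St3gal2 overlapped with the other two.

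Grouped by the bond they make, the 6 ST3GAL genes together took 85.2% of the summed CPM per kilobase of the 10 genes in LPS plus BHB libraries, 92.4% in LPS libraries and 54.2% in control libraries. St6gal1 alone took 0.262% with LPS plus BHB, 0.0662% with LPS and 24.7% in control. The 2 ST6GALNAC genes took 6.55%, 6.38% and 13.8% in LPS plus BHB, LPS and control libraries. St8sia4 took 7.96%, 1.20% and 7.33% in the same groups, so its share was lowest in LPS libraries. The sums behind these shares were 187.5 ± 2.42, 239.9 ± 3.74 and 139.7 ± 0.941 CPM per kilobase (SD, n = 3 each). Taking the longest transcript in place of all exon bases moved single shares and parts of the order. In control libraries St6gal1 stood at 20.4% and St3gal4 at 19.2%, followed by St6galnac6 at 11.4%, St8sia4 at 11.1% and St3gal5 at 10.8%. St8sia4 stood at 12.8% with LPS plus BHB, above St3gal5 at 12.2%, and at 2.01% with LPS.

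**Figure D3:**
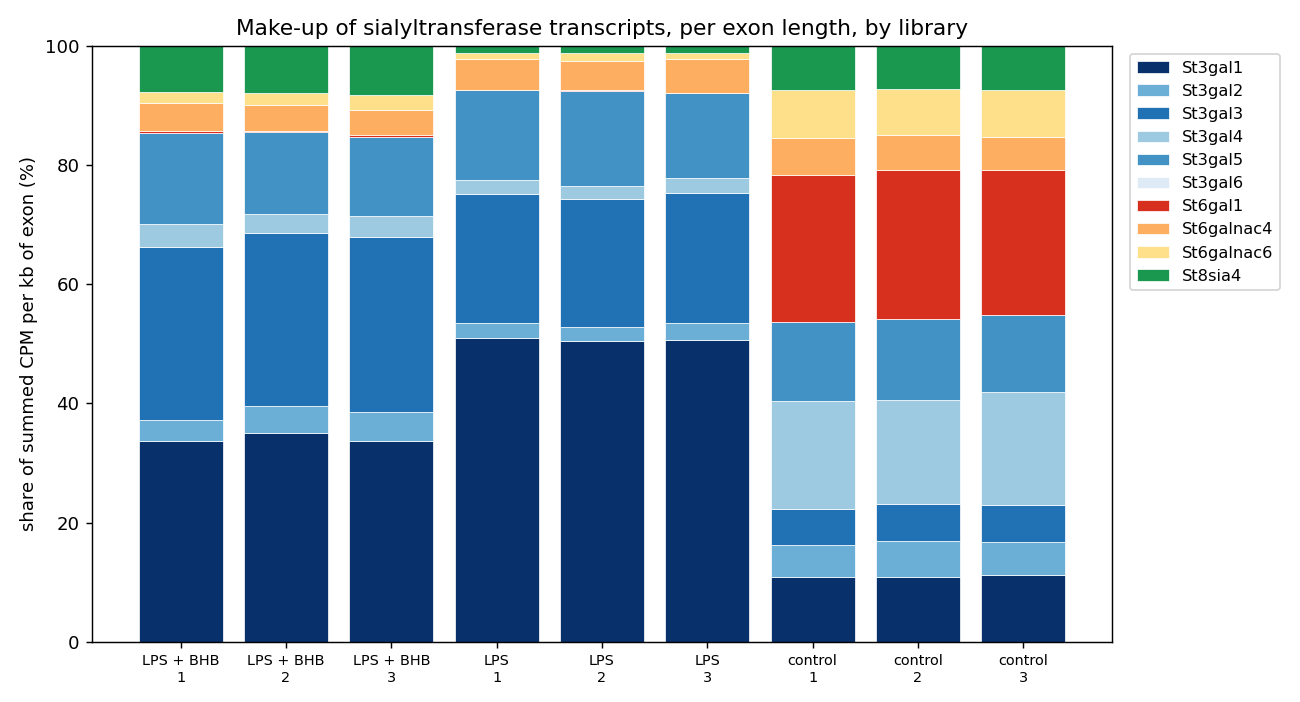
Share of each sialyltransferase gene in the summed CPM per kilobase of exon of the 10 genes, as 1 stacked bar per library, for LPS plus BHB, LPS and control from left to right. The ST3GAL genes together hold 84.7% to 85.6% of the LPS plus BHB bars, 92.0% to 92.6% of the LPS bars and 53.7% to 54.8% of the control bars, where St6gal1 holds 24.33% to 24.98%.

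The 10 family genes outside the set were near or at 0. St6gal2 and St6galnac1 had 0 counts in every library, and apart from St8sia6 no other exceeded 16 counts in a library. St8sia6, which links sialic acid to sialic acid, was tested, with 6, 6 and 2 counts with LPS plus BHB, 20, 21 and 22 with LPS, and 28, 31 and 25 in control. It fell by 2.14 on the log2 scale in LPS plus BHB against LPS and was not called in LPS against control, at -0.09.

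Outside the family, 77 genes of sialic acid supply, removal, reading and acceptor synthesis were followed, of which 65 were tested. In LPS against control 20 were higher and 42 lower (30.8% and 64.6%), beside 38.4% and 41.4% over all tested genes. Their median log2 fold change was -0.75 against -0.06 over all tested genes. Between LPS plus BHB and LPS 23 were higher and 17 lower (35.4% and 26.2%), beside 26.4% and 24.4%, with a median of 0.10 against 0.01. Between LPS plus BHB and control 16 were higher and 38 lower (24.6% and 58.5%), beside 38.0% and 40.4%. The median there was -0.70 against -0.06. The counts of each list below stand beside these same shares over all tested genes.

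Among the 8 tested genes listed for sialic acid synthesis, activation and transport, 6 were lower with LPS than in control and 2 were higher. That is 75% and 25%, beside 41.4% and 38.4% over all tested genes. The 6 include Npl, which breaks sialic acid down, and Cmah, which modifies it, so not all of them supply it. Npl stood at -1.80 on the log2 scale and Cmah at -2.40, the latter on 12 counts over the LPS libraries. The 2 higher were the sialic acid synthase gene Nans at 0.58 and Renbp at 0.27. The lysosomal sialic acid exporter Slc17a5 averaged 23.8 CPM in LPS libraries and 89.1 CPM in control libraries (log2 fold change -1.90, SE 0.06). Slc35a1, which carries activated sialic acid into the Golgi, averaged 6.40 CPM in LPS libraries and 15.6 in control (-1.28, SE 0.12). When BHB was added to LPS, 1 was higher and 2 lower. Cmas, which activates sialic acid, rose by 0.18 on the log2 scale (SE 0.06). Renbp, an epimerase of amino sugars, fell by 0.45 (SE 0.05), and Gne fell by 0.30 (SE 0.11). Gne was also lower in LPS against control, at -0.88 (SE 0.10).

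Of 6 tested genes of sialic acid removal and O-acetylation, 4 fell and 0 rose in LPS against control. Siae, which takes acetyl groups off sialic acid, averaged 11.4 CPM with LPS plus BHB, 8.31 with LPS and 43.0 in control, with log2 fold changes of -2.37 in LPS against control (SE 0.09) and 0.46 in LPS plus BHB against LPS (SE 0.09). Casd1, which adds them, averaged 38.1, 24.9 and 37.7 CPM in the same groups, with log2 fold changes of -0.60 in LPS against control (SE 0.07) and 0.61 in LPS plus BHB against LPS (SE 0.07). Glb1, the lysosomal beta-galactosidase, fell by 1.09 on the log2 scale in LPS against control (SE 0.06). The lysosomal sialidase Neu1 had 2.81 CPM in LPS libraries and 3.37 in control libraries and was not called, and since Tnf, on the same stretch of chromosome 17, was listed at 0 in every library, low counts there were not read as low expression.

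Receptors that read sialic acid were mixed. With LPS, 4 of 10 stood higher than in control and 6 lower, and with BHB added 5 stood higher than with LPS and 1 lower. Siglec1, the sialoadhesin of macrophages, averaged 20.04 CPM with LPS plus BHB, 12.11 with LPS and 138 in control, with log2 fold changes of -3.50 in LPS against control (SE 0.09) and 0.72 in LPS plus BHB against LPS (SE 0.10). Cd22, which reads the bond that St6gal1 makes, fell by 1.74 on the log2 scale in LPS against control (SE 0.08), and its value in LPS plus BHB against LPS was 0.07 and not called. Cd33, a Siglec of myeloid cells, rose in LPS against control and in LPS plus BHB against LPS, by 1.12 (SE 0.09) and 0.64 (SE 0.08). Sele, the selectin E gene, had no counts in control libraries, averaged 3.00 CPM with LPS, and fell by 3.36 on the log2 scale in LPS plus BHB against LPS (SE 0.38).

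The enzymes that build the acceptor chains moved in both directions. Of 13 N-glycan branching and galactosylation genes, 7 were higher with LPS than in control and 6 lower, and 5 were higher with LPS plus BHB than with LPS and 4 lower. The N-glycan mannosidase gene Man2a2 averaged 40.4 CPM in LPS libraries and 373 in control libraries (log2 fold change -3.21, SE 0.06), and the branching enzyme gene Mgat5 averaged 23.3 and 127.0 CPM (-2.45, SE 0.06). B4galt1, which adds the galactose that sialyltransferases cap, averaged 110.5 CPM with LPS plus BHB, 50.1 with LPS and 121 in control, and rose by 1.14 on the log2 scale in LPS plus BHB against LPS (SE 0.05). Mgat4a, another branching enzyme gene, rose by 1.22 in that comparison (SE 0.07).

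The 11 tested genes of O-glycan cores and selectin ligands were all called between LPS plus BHB and LPS. Of them 8 were higher and 3 lower (72.7% and 27.3%), beside 26.4% and 24.4% over all tested genes. The 8 include Fut7 and Chst1, which rest on 5 counts and 1 count over the LPS libraries. Between LPS and control 4 were higher and 7 lower (36.4% and 63.6%), beside 38.4% and 41.4% over all tested genes. Gcnt1, which branches the O-glycan core that St3gal1 also uses, averaged 14.9 CPM with LPS plus BHB, 6.45 with LPS and 124.0 in control, with log2 fold changes of -4.26 in LPS against control (SE 0.11) and 1.20 in LPS plus BHB against LPS (SE 0.13). Selplg, the P-selectin ligand, averaged 60.8, 30.8 and 172 CPM in the same groups. Cd44, a hyaluronan receptor that carries sialic acid, averaged 4376, 3499 and 565 CPM.

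Of 10 tested ganglioside genes, 7 were lower with LPS than in control and 2 higher, while St3gal5, the member that opens this pathway, rose. Ugcg, which makes glucosylceramide, averaged 117 CPM with LPS plus BHB, 204 with LPS and 36.2 in control, with log2 fold changes of 2.495 in LPS against control (SE 0.07) and -0.80 in LPS plus BHB against LPS (SE 0.06). B4galt6 and Galc, a lactosylceramide synthase and a galactosylceramide-degrading enzyme, fell by 2.63 (SE 0.06) and 2.46 (SE 0.05) in LPS against control. B4galt5, the other lactosylceramide synthase gene of the list, went the other way, averaging 442 CPM with LPS plus BHB, 622 CPM with LPS and 202 CPM in control, with log2 fold changes of 1.62 in LPS against control (SE 0.05) and -0.49 in LPS plus BHB against LPS (SE 0.05). Gla, a lysosomal alpha-galactosidase, fell by 0.91 in LPS plus BHB against LPS (SE 0.05). Of 7 galectins and Golgi cleavage genes, 6 fell and 1 rose in LPS against control, with Lgals9 at -2.13 (SE 0.09) and Lgals8 at 0.54 (SE 0.05). Between LPS plus BHB and LPS, 1 was higher and 3 lower, with Lgals3 at -0.84 (SE 0.05), Lgals8 at -0.48 (SE 0.05) and Lgals1 at -0.41 (SE 0.05).

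**Figure D4:**
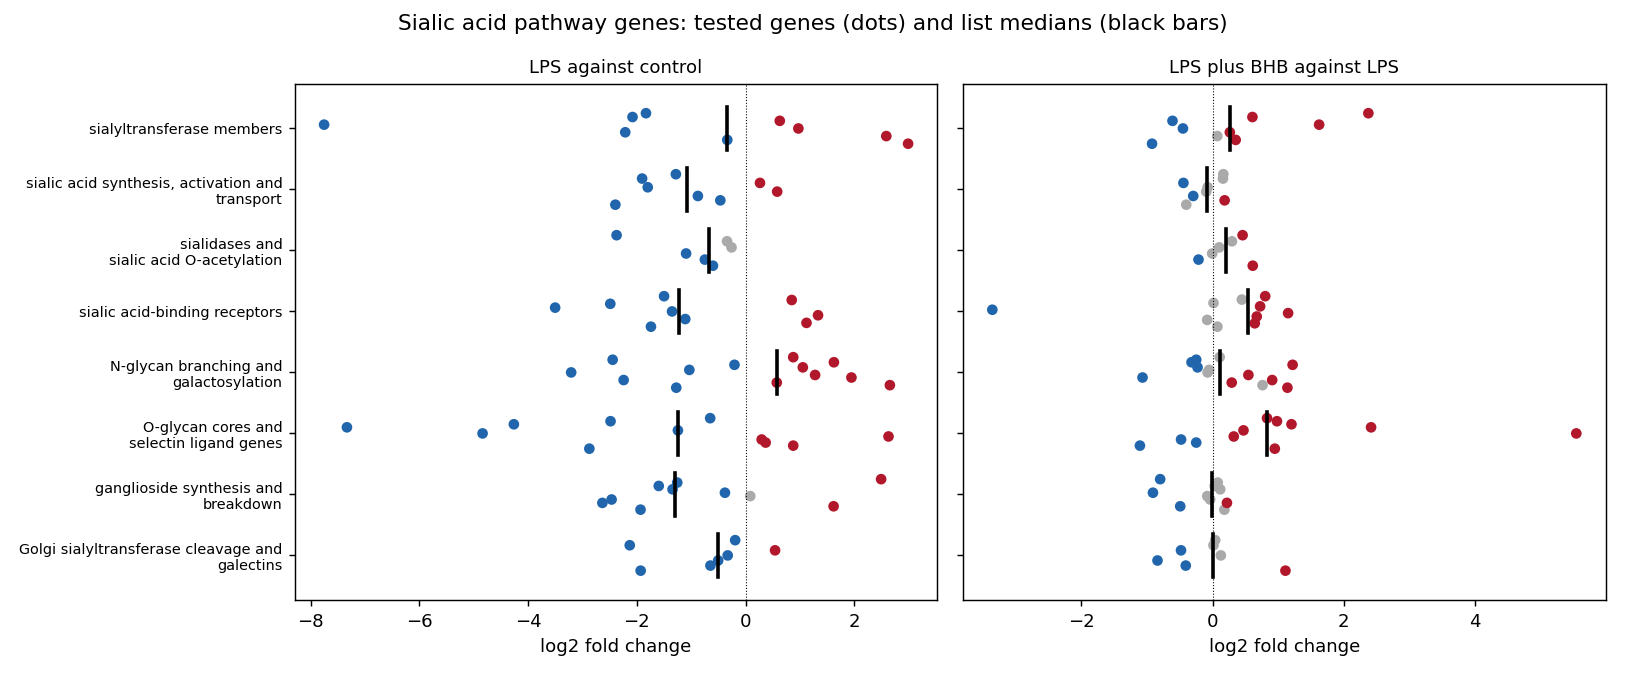
Log2 fold change of each tested gene in the sialyltransferase set and in 7 lists of related genes, in LPS against control and in LPS plus BHB against LPS, with red dots for genes called higher, blue for genes called lower, grey for the rest and black bars at medians. In LPS against control the medians of the sialyltransferase set and of every list except N-glycan branching and galactosylation lie below 0. The dot of Sele, with no counts in control, is left out of that panel, but the median bar of its list includes it. The dots of Chst1, an O-glycan sulfotransferase gene, rest on 1 count over the LPS libraries.

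For the 3 members with the widest range of group means, the genes with the most similar pattern over the 9 libraries were found by the root mean square difference of centred log2 CPM. St6gal1's nearest genes were Themis2 at 0.371, Lyl1 at 0.421 and Zfyve28 at 0.453 on the log2 scale. St3gal1's were Papss2 at 0.0533, Stk40 at 0.0943 and Sh3bp5 at 0.101, and St3gal3's were Cybb at 0.0507, Relb at 0.0528 and Kdm4a at 0.0661. Pearson's r over the 9 libraries was 0.9938 between St6gal1 and Themis2 and 0.9996 between St3gal3 and Cybb, and with 3 groups such values mostly describe the group means.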

How the data were processed

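RNA from 9 libraries was measured. The values deposited by the authors are raw counts, 1 row per gene and 1 column per library; per the submitters' processing notes reads were aligned with HISAT2 to mm10. Which tool counted the reads, with which annotation and strand setting, was not given in the sources used here. Every column matched 1 library by its title.

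A low-count filter (filterByExpr, minimum count 10, on the 3 groups) left 14026 genes with 99.956% of counts. After TMM scaling, edgeR 4.0.16 (R 4.3.3) fitted all 9 libraries (quasi-likelihood, robust, group as the only term), with two-sided tests and Benjamini-Hochberg adjustment at 0.05; the method was tested on simulated data. An SE was taken as |log2 fold change| over the root of the F statistic, and intervals are 95%. CPM use TMM-scaled totals, CPM per kilobase use GENCODE M21 exon unions (GRCm38), and promoters come from RefSeq (GRCm38.p6). No St3gal1 or St3gal2 promoter was matched.

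Members and lists were chosen with earlier results of these data known. Named were all members, the 2 genes with the smallest p per list in LPS against control and in LPS plus BHB against LPS, and genes needed to read a member; Neu1, Tnf, Cd79b, Ms4a1, Pax5, BC106179, 4930581F22Rik, Dcbld2 and Chst1 were named on that last ground, and B4galt5 was chosen after its values were seen. Replicates differed by more than sampling noise (chi-square per degree of freedom 3.16 to 11.2) and were counted separately. Alternatives were DESeq2 1.42.0, its size factors in edgeR, library totals alone, no filter, a replicate block, fits of 6 libraries, leaving out replicates, and longest transcripts for shares. Intervals of count ratios cover counting error only.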

Additional observations from a re-analysis of the deposited data

How the results depend on the processing

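Of 30 gene-by-comparison results, 26 kept their direction and side of the threshold in all 16 alternatives. With library totals alone, 5 members in place of 3 were lower in LPS plus BHB against control, since St3gal2 stood at -0.31 and St6galnac4 at -0.31 on the log2 scale; this scaling shifted the median of all genes. Both had log2 fold changes near 0 otherwise. Leaving out 1 library at a time, St3gal2 ranged from -0.044 to 0.136, with -0.02 without control replicate 1 and -0.02 without LPS plus BHB replicate 2. St6galnac4 ranged from -0.025 to 0.0623, with -0.0015 without LPS plus BHB replicate 1. Without control replicates 2 and 3, St6galnac4 was at -0.041. Calls were lost for St3gal2 in LPS against control without control replicates 2 and 3 (-0.27, against -0.34 with all libraries; the lone control library was assumed to vary like the other groups) and for St3gal4 in LPS plus BHB against LPS without LPS plus BHB replicate 1; the cause was not tested.

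Replicate numbers are shared between groups in the labels. Correlations of the libraries' deviations were -0.0166 to 0.0392 for same-numbered pairs and -0.0379 to 0.043 for differently numbered pairs. Between LPS and LPS plus BHB, same-numbered pairs gave 0.0327, 0.0138 and 0.0392, above the differently numbered pairs at -0.0379 to 0.00767. All of these correlations were small. A fit with the replicate block gave 4 members higher and 5 lower in LPS against control, and St6gal1 at 1.62 in LPS plus BHB against LPS, and changed no member's call. Of 30 shares, 22 moved by more than the spread between libraries with the longest transcript. St6gal1 with LPS rests on 68 counts over 3 libraries and St3gal6 on fewer, which limits their precision.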
